A study of Mus musculus with 16 samples.

Results

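The nuclear genes that encode subunits of respiratory complexes III and IV, cytochrome c and ATP synthase (complex V) were followed in mouse tibialis anterior, a fast muscle of the lower leg. They were chosen by symbol, as every gene on the array whose name begins with Uqcr, Cox4 to Cox8 or Atp5, together with Cyc1 and Cycs. The rule used no expression value, but it was set with earlier results of these data known. It gave 45 genes, 9 of complex III, 1 for cytochrome c, 18 of complex IV and 17 of ATP synthase, measured by 55 probes. Of these, 44 passed the filter on dim probes and were tested among 24826 genes in all. The gene that did not pass, Cox8c, a testis form of a complex IV subunit, was well above background on 1 of 16 arrays.

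The muscle came from 4 groups of offspring, which differ in the diet of the mother and in their own diet. Undernourished offspring had dams whose food was cut by 50% in week 3 of gestation, and control offspring had dams on the control diet. Each kind was either calorie restricted (CR) or fed ad libitum (AL), which gives the groups undernourished CR, control CR, undernourished AL and control AL. The labels give no strain, sex, age or length of restriction. Muscle RNA of 8 mice per group was joined 2 mice at a time, which gives 4 pools and 4 arrays per group. The labels do not say which pools share a litter, so p-values measure the spread between pools, and the dam, which received the maternal diet, is not a unit of the tests.

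Complex III passes electrons from coenzyme Q to cytochrome c, and complex IV passes them from cytochrome c to oxygen, while both move protons across the inner mitochondrial membrane. ATP synthase lets the protons back through a rotating ring of c subunits and uses that flow to make ATP. Most subunits are nuclear genes expressed in every tissue, but several small subunits of complex IV exist as a pair of genes, one form of heart and skeletal muscle (Cox6a2, Cox7a1, Cox8b) and one form of most other tissues (Cox6a1, Cox7a2, Cox8a). In a fast muscle the muscle forms are therefore part of the mature fibre, and the other forms can come from fibres or from other cells in the sample.

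Values are log2 processed signals minus the 75th percentile of the same array, so that 1 unit is a doubling and 0 is the 75th percentile itself. Levels of different probes are not comparable with each other. The 75th percentile ranged from 377 to 807 over the arrays, 66.4% to 78.5% of spots were well above background, and no spot was marked as saturated. All 15 fast muscle markers, such as the muscle creatine kinase Ckm and the fast myosin Myh4, were well above background on all 16 arrays. All AL arrays were scanned on one day and on slides of their own, and all CR arrays on another, so offspring diet and scan day cannot be told apart. The AL arrays also carried brain transcripts. The median signal of 39 measured brain markers was -4.53 to -4.04 on the 8 CR arrays, against -0.44, -0.84, -1.04 and -2.17 on undernourished AL replicates 1 to 4 and 1.86, 1.67, -0.55 and -1.13 on control AL replicates 1 to 4. Even so, 25 of the 39 markers were detected above background on every CR array. Skin markers stood at a median of -1.97 on undernourished CR replicate 2, -2.05 on undernourished AL replicate 3, and -0.46, 0.78 and -0.65 on control AL replicates 1 to 3, against -4.15 to -2.94 on the other 11 arrays. The signal of albumin (Alb), a liver product, was -0.90 on undernourished AL replicate 3, against -7.63 to -4.65 on the other 15 arrays.

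In control offspring the largest diet differences were those of the complex IV isoforms Cox6a1 and Cox8a, so their upstream sequences are shown with those of the muscle forms Cox8b and Cox7a1. No promoter sequence was available for Cox6a2, the muscle form paired with Cox6a1. Cox7a1 is paired with Cox7a2 and not with either of these genes. Each holds 250 bases before and 50 bases after the annotated start (RefSeq, GRCm38.p6, 5′ to 3′ along the gene). They lie at chr5:115348909-115349208 (minus strand), chr19:7217567-7217866 (minus strand), chr7:140900397-140900696 (minus strand) and chr7:30183921-30184220 (plus strand). Capitals mark matches, on either strand, to the ETS letters CCGGAAG, the 10-letter NRF1 motif and the myogenic E-box CAGCTG.
Cox6a1: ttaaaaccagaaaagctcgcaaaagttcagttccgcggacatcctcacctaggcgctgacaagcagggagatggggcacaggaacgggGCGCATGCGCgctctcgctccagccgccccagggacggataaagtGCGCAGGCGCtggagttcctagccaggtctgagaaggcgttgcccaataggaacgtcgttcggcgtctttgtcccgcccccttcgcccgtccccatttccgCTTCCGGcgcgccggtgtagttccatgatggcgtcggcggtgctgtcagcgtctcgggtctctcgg
Cox8a: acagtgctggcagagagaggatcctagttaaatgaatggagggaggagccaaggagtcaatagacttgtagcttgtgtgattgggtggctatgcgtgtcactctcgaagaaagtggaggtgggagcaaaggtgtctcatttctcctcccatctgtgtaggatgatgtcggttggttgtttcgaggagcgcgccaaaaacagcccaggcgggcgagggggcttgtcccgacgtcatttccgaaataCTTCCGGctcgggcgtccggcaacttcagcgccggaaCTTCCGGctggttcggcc
Cox8b: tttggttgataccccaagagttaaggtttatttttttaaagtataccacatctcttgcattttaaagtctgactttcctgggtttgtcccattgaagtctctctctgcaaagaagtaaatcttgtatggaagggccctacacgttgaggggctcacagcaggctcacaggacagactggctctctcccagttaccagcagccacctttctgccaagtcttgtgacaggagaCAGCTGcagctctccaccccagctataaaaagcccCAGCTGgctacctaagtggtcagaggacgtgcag
Cox7a1: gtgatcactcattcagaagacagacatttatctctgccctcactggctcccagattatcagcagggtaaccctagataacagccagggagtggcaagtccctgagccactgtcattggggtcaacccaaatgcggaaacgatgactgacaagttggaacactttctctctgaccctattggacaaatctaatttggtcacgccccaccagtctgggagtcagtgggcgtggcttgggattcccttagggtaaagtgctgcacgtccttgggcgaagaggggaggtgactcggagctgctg

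Cox6a1 held the NRF1 motif 162 and 117 bases before the start and ETS letters 16 bases before it. Cox8a held ETS letters 5 bases before the start and again after it. Cox8b held an E-box 19 bases before the start and another after it, and Cox7a1 held none of the searched letters. Motifs of 6 factor families were searched in the promoters of the 34 member genes that the RefSeq table lists. ETS letters were in 11 of the 34 (32.4%) and in 8.86% of 32851 promoters of that length, and the NRF1 motif in 8 of the 34 (23.5%) and in 4.6% of all promoters. The letters of YY1 (AAGATGGCG) were in 2 of 34 (5.88%, against 1.40% of all promoters), those of ERR (AAGGTCA) in 4 (11.8%, against 4.72%), the MEF2 motif in 1 (2.94%, against 3.69%) and the E-box in 2 (5.88%, against 16.3%). The ETS and NRF1 matches do not overlap each other in the sequences shown. A match is a string of letters, and binding was not measured.

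Calorie restriction in control offspring was compared first, to ask which subunit genes differed between restricted and freely fed muscle. Cox6a1, the broadly expressed form of subunit VIa, which sits at the contact between complex IV monomers, gave 5.55, 5.75, 5.80 and 5.89 on the control CR arrays, against 7.09, 6.94, 6.41 and 6.44 on the control AL arrays. Every restricted pool was below every freely fed pool. Cox6a1 fell by 0.97 ± 0.18 log2 units (SE, 4 arrays per group, limma adjusted p = 0.0011), which is 1.96-fold lower. Cox8a, the broadly expressed form of the small membrane subunit VIII, gave 3.85, 4.20, 4.18 and 4.10 on the control CR arrays, against 5.26, 5.10, 4.72 and 4.82 on the control AL arrays. Its groups did not overlap either, and it fell by 0.90 ± 0.20 (limma adjusted p = 0.00324).

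The muscle forms of the same subunits overlapped between the groups. Cox6a2 gave 8.55, 8.70, 8.83 and 8.65 on the control CR arrays, against 8.46, 8.61, 8.74 and 9.02 on the control AL arrays, a log2 difference of -0.03 (95% interval -0.31 to 0.26). Cox8b gave 7.63, 7.88, 7.80 and 7.78 in control CR, against 7.36, 7.46, 7.59 and 8.03 in control AL, a difference of 0.16 (95% interval -0.16 to 0.48). Within an array, the log2 ratio of Cox6a2 to Cox6a1 was therefore 0.95 higher in control CR than in control AL, and that of Cox8b to Cox8a 1.06 higher.

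The third pair went the other way. Cox7a2, the broadly expressed form of subunit VIIa, gave 6.40, 6.49, 6.90 and 6.43 on the control CR arrays, against 5.91, 5.92, 5.92 and 6.79 on the control AL arrays. Only control AL replicate 4 reached the restricted range. The difference of 0.42 ± 0.22 did not pass (limma adjusted p = 0.154). Its muscle form Cox7a1 gave 8.18, 8.44, 8.53 and 8.45 in control CR, against 8.14, 8.29, 8.42 and 8.96 in control AL, a difference of -0.05 (95% interval -0.41 to 0.30). The log2 ratio of Cox7a1 to Cox7a2 was 0.47 lower in control CR than in control AL. The 3 pairs thus did not shift in a common direction between muscle and broadly expressed forms. In undernourished offspring the ratios differed between CR and AL by 0.28 for Cox6a2 to Cox6a1, 0.51 for Cox8b to Cox8a and -0.66 for Cox7a1 to Cox7a2. Changes of the ratios were not tested.

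**Figure D1:**
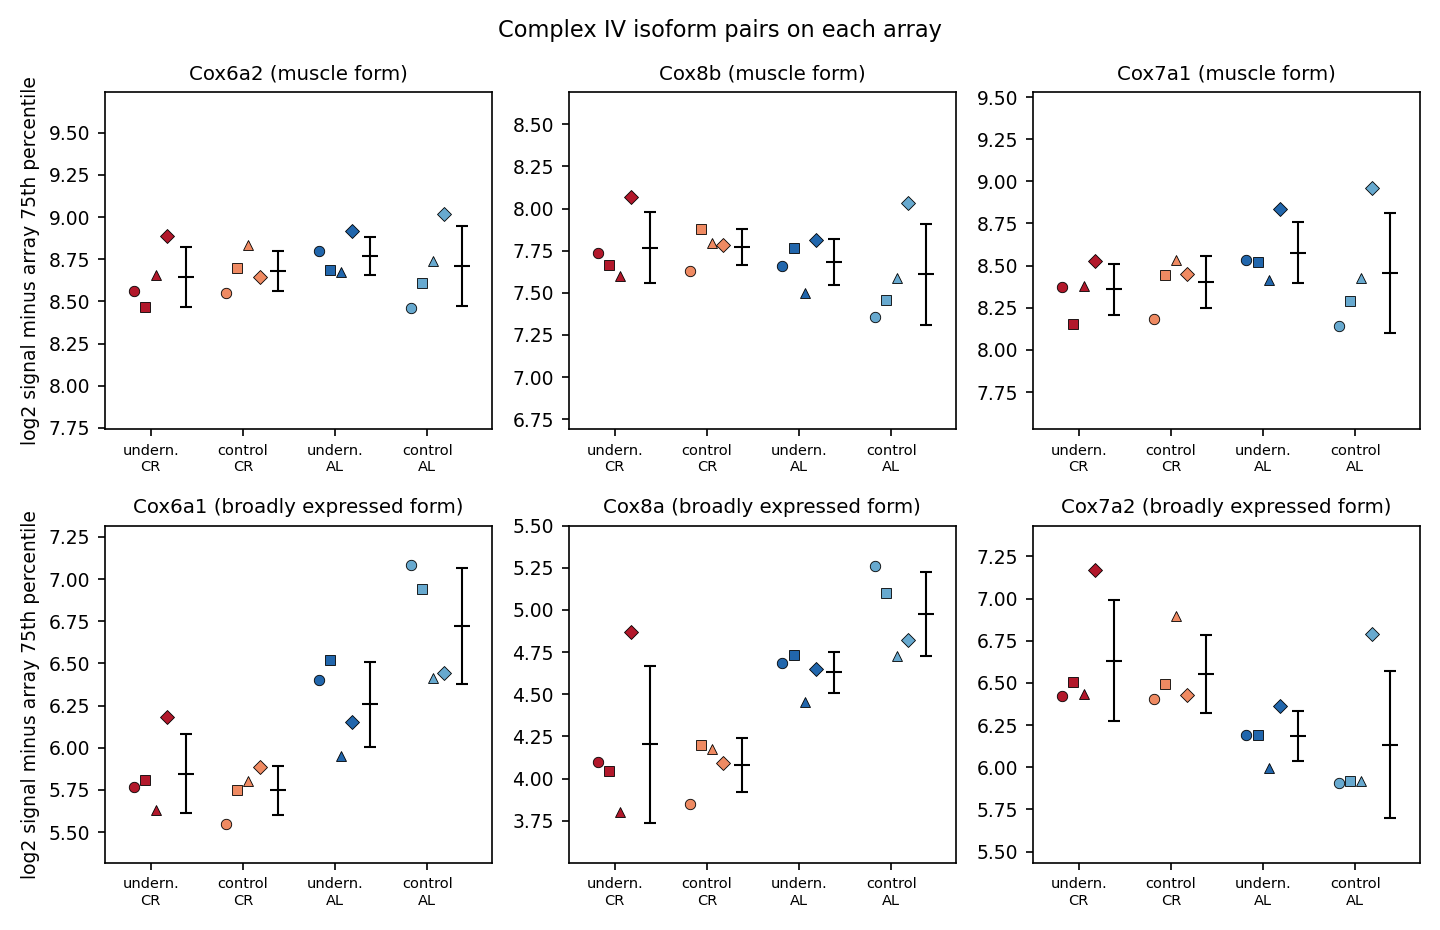
Log2 signal minus the array's 75th percentile for 3 muscle forms (top) and their broadly expressed forms (bottom) in the 4 groups. Circles, squares, triangles and diamonds are replicates 1 to 4, bars are mean ± SD over 4 arrays, and every panel spans 2 log2 units. Cox6a1 and Cox8a stand lower on the control CR arrays than on the control AL arrays, while Cox6a2 and Cox8b overlap.

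In undernourished offspring the same genes were compared between CR and AL. Cox6a1 gave 5.77, 5.81, 5.63 and 6.18 on the undernourished CR arrays, against 6.40, 6.52, 5.95 and 6.15 on the undernourished AL arrays. Undernourished CR replicate 4 lay above 2 of the AL pools, and the difference of -0.41 ± 0.18 did not pass (limma adjusted p = 0.121). Cox8a gave 4.10, 4.04, 3.80 and 4.87 in undernourished CR, against 4.69, 4.73, 4.46 and 4.65 in undernourished AL, a difference of -0.43 ± 0.20 (limma adjusted p = 0.136). Of the restricted pools, 3 were below every freely fed pool and replicate 4 was above all of them. Without undernourished CR replicate 4, Cox8a fell by 0.65 (limma adjusted p = 0.0092). Cox6a2 gave 8.56, 8.47, 8.65 and 8.89 in undernourished CR, against 8.80, 8.69, 8.68 and 8.92 in undernourished AL, and Cox8b gave 7.74, 7.67, 7.60 and 8.07, against 7.66, 7.77, 7.50 and 7.81. The groups overlapped for both, with differences of -0.13 and 0.08.

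Cox7a2 gave 6.42, 6.51, 6.43 and 7.17 on the undernourished CR arrays, against 6.19, 6.19, 5.997 and 6.36 on the undernourished AL arrays. All restricted pools were above all freely fed pools, but the difference of 0.45 ± 0.22 did not pass (limma adjusted p = 0.158). Cox7a1 gave 8.37, 8.15, 8.38 and 8.53 in undernourished CR, against 8.54, 8.52, 8.42 and 8.83 in undernourished AL, a difference of -0.22 ± 0.16. The difference in response between the offspring of undernourished and control dams was tested as an interaction. It was 0.56 ± 0.25 for Cox6a1 (limma adjusted p = 0.515) and 0.47 ± 0.28 for Cox8a (limma adjusted p = 0.579), so neither response was shown to differ.

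Transcripts of other tissues and cells were also higher in control AL, where Cox6a1 and Cox8a were. The 2 control AL arrays of slide 1, with brain marker medians of 1.86 and 1.67, had the highest Cox6a1 and Cox8a signals of all 16 arrays, whereas Cox7a2 on them was among the lowest of all arrays. Of 9 measured leukocyte markers, 8 were lower in control CR than in control AL (median difference -1.02) and 0 in undernourished CR, where 15.1% and 9.82% of all genes were lower. All 9 were well above background on all 16 arrays, and their summed linear signal was 2.20 to 3.25 in control CR, against 4.75 to 9.24 in control AL, in units of the 75th percentile. In undernourished offspring it was 2.67 to 4.79 in CR, against 3.41 to 6.83 in AL. Skin markers were likewise lower in control CR for 13 of 16 and in undernourished CR for 0 of 16. The part of leukocyte transcripts in the results for Cox6a1 and Cox8a was not tested. Without these 2 arrays Cox6a1 still fell in control offspring, by 0.68 (limma adjusted p = 0.0239), while Cox8a differed by -0.69 and did not pass (limma adjusted p = 0.0595). With each array's brain transcript level as a covariate the differences were -0.59 for Cox6a1 (limma adjusted p = 0.0499) and -0.64 for Cox8a (limma adjusted p = 0.0964). When the 5 arrays with high skin or liver markers were left out, they were -0.70 and -0.74 (limma adjusted p = 0.126 and 0.22), with a single control AL array left, whose spread was taken from the other groups. In bulk RNA, fewer cells of a type and less RNA per cell cannot be told apart.

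**Figure D2:**
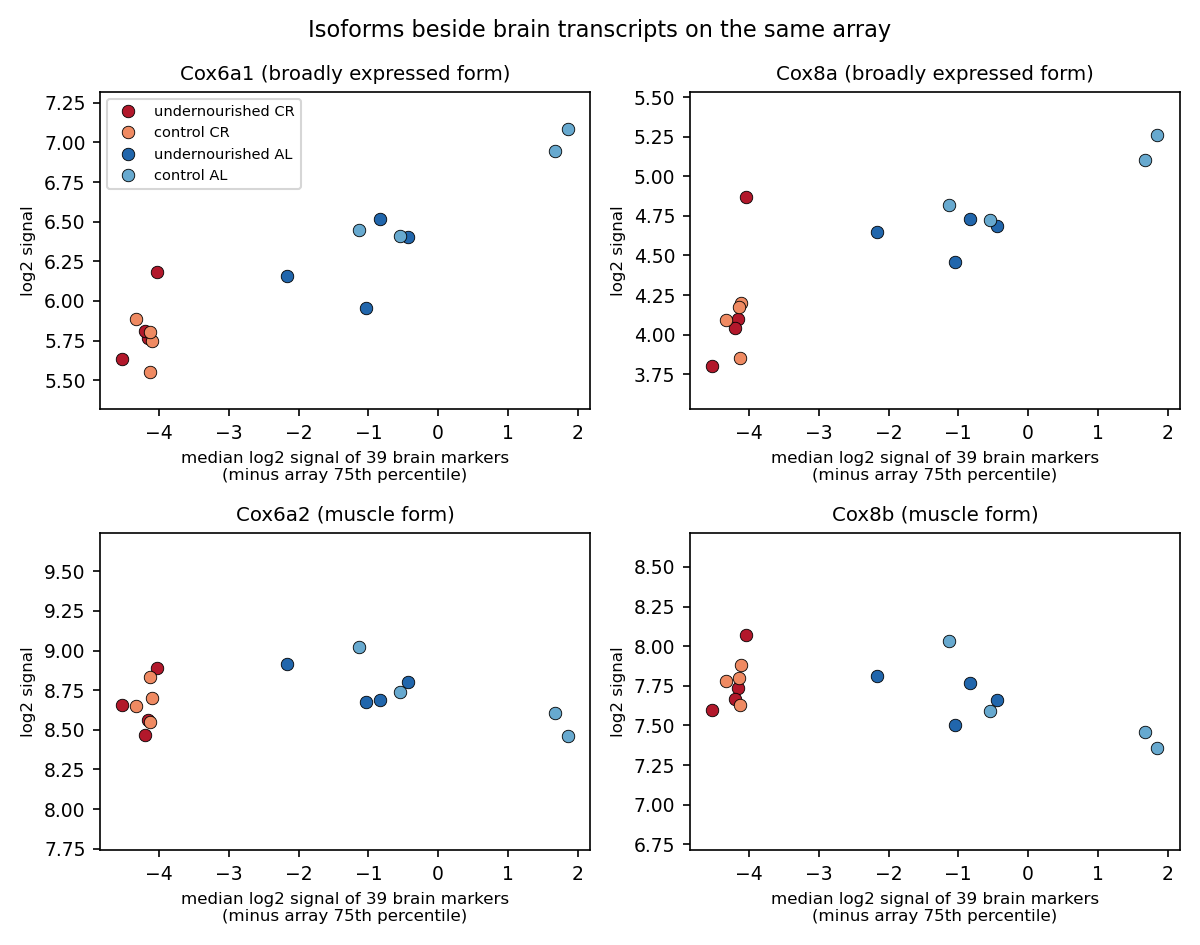
Log2 signal of 4 complex IV isoforms (minus the array's 75th percentile) against the median log2 signal of 39 brain markers on the same array, 1 point per array. The 8 CR arrays sit between -4.53 and -4.04 on the horizontal axis. Cox6a1 and Cox8a are highest on the 2 control AL arrays with the most brain signal, where Cox6a2 and Cox8b are not.

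Across the whole set, control CR differed from control AL in few genes. Of 44 genes, 1 was higher and 2 were lower at an adjusted p under 0.05, where 16.8% of all genes tested were higher and 15.1% lower (32% in either direction). The median log2 difference of the 44 was 0.03, beside 0.06 over all genes tested. Cox6a1 and Cox8a were the 2 genes of 44 whose groups did not overlap, where 31.6% of all genes tested did not. The 95% interval of the difference lay within 1 log2 unit of 0 for 41 of the 44 genes and within 0.5 for 20. In undernourished offspring 1 gene was higher and 1 lower, where 10.3% of all genes tested were higher and 9.82% lower (20.1% in either direction). The median difference was -0.06, beside -0.00 over all genes, and 6 of 44 genes did not overlap between the groups, beside 26% of all genes tested. With this scaling, both diet comparisons therefore called a smaller share of these genes than of the array as a whole. On the authors' deposited log2 values, described below, the share of these genes was the larger one.

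**Figure D3:**
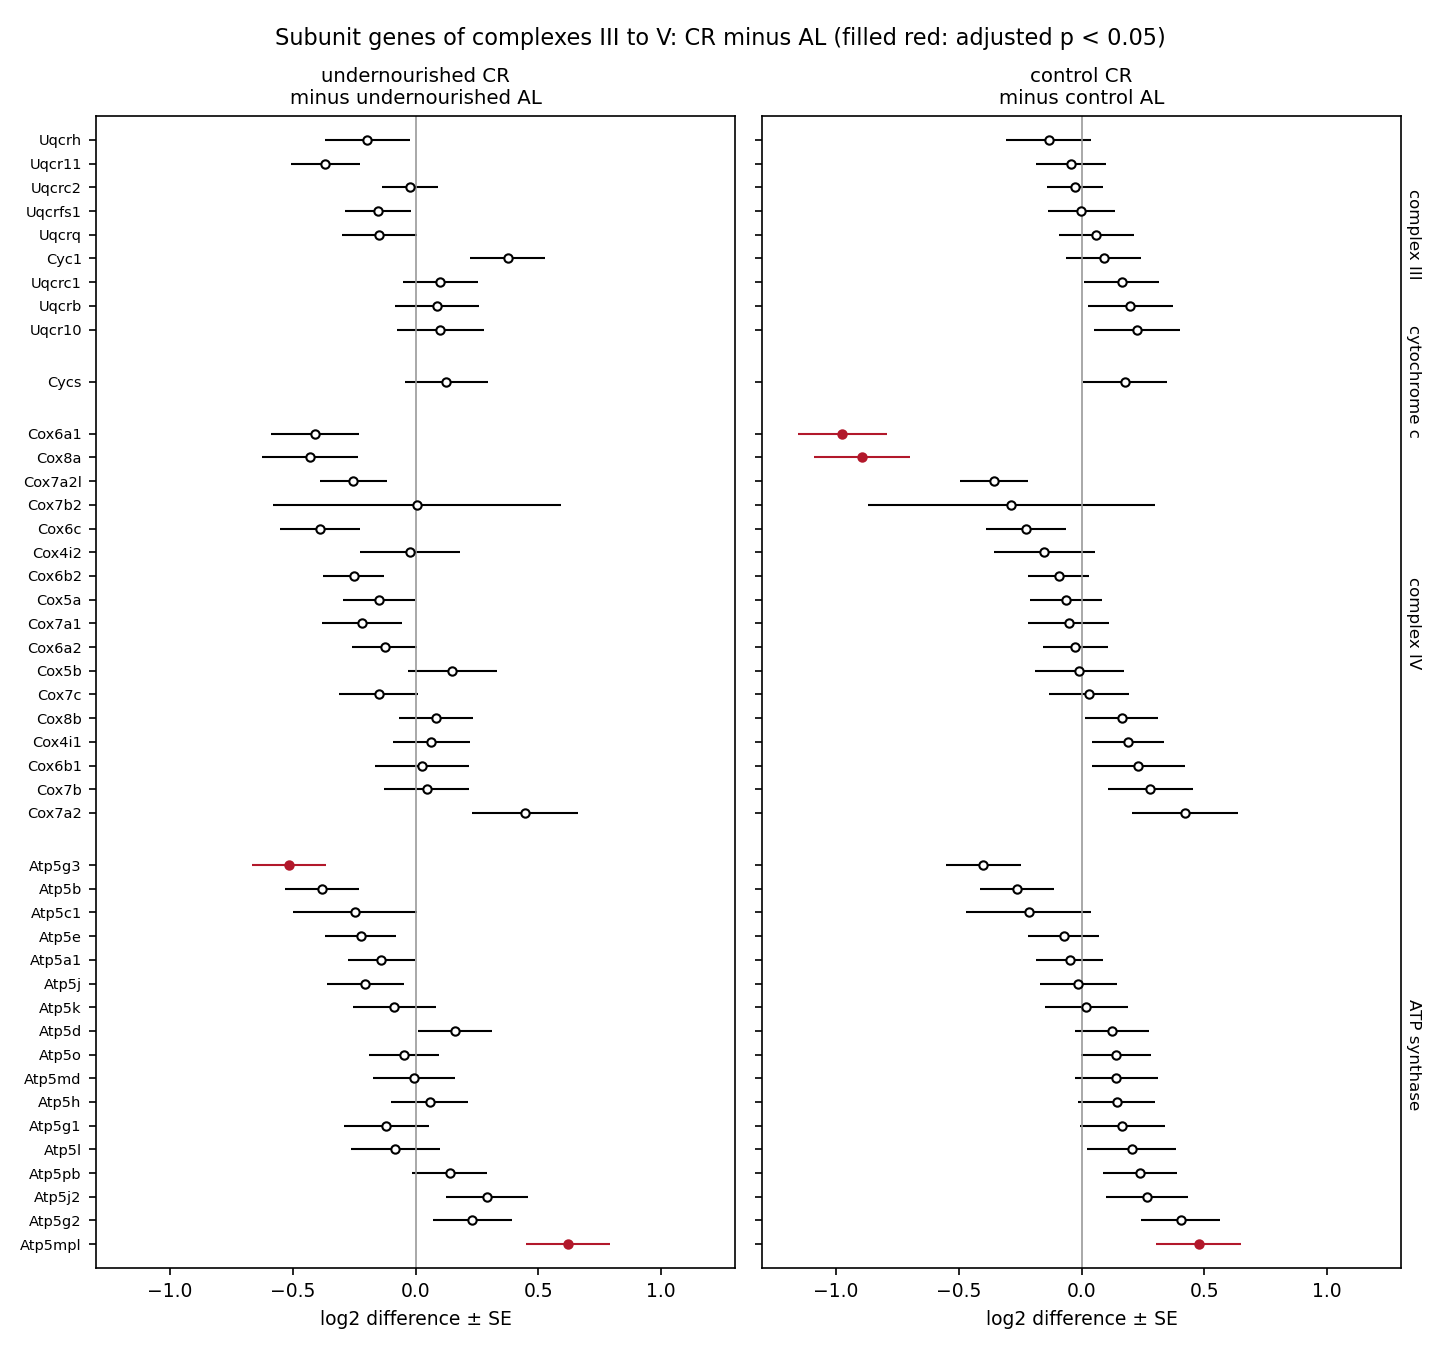
Log2 difference (CR minus AL, ± SE, 4 arrays per group) of the 44 tested genes in undernourished and in control offspring, by complex. Filled red points passed an adjusted p under 0.05. The called genes are Cox6a1, Cox8a and Atp5mpl in control offspring and Atp5g3 and Atp5mpl in undernourished offspring.

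None of the 9 complex III genes was called in either diet comparison. In control offspring their differences ran from -0.13 for Uqcrh, the hinge protein that helps dock cytochrome c, to 0.22 for the small subunit gene Uqcr10, with a median of 0.06. Uqcrc2, a core subunit, stood at 7.25 ± 0.04 in control CR and 7.28 ± 0.22 in control AL (mean ± SD, n = 4 arrays each). The Rieske iron-sulphur protein gene Uqcrfs1 differed by -0.00 (95% interval -0.29 to 0.29). In undernourished offspring the extremes were Uqcr11, a small accessory subunit, and Cyc1, the cytochrome c1 subunit that hands electrons on. Uqcr11 gave 7.37, 7.19, 7.30 and 7.27 in undernourished CR, against 7.84, 7.66, 7.40 and 7.68 in undernourished AL. Its groups did not overlap, and the difference of -0.37 ± 0.14 did not pass (limma adjusted p = 0.0814). Cyc1 gave 6.78, 6.45, 6.71 and 6.65 in undernourished CR, against 6.36, 5.93, 6.33 and 6.47 in undernourished AL, a difference of 0.38 ± 0.15 (limma adjusted p = 0.0958). Its groups overlapped by a single pair of pools.

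Cycs, the mobile cytochrome c of somatic cells, was not called in either diet comparison. It gave 7.26, 7.30, 7.54 and 7.36 in control CR, against 6.91, 7.09, 7.003 and 7.76 in control AL, a difference of 0.18 (95% interval -0.19 to 0.54). In undernourished offspring it differed by 0.13 (95% interval -0.24 to 0.49). On the authors' deposited values Cycs was higher by 0.64 in control CR and by 0.73 in undernourished CR (limma adjusted p = 0.000147 and 5.96e-05), and scaled to fast muscle markers by 0.42 and 0.55 (limma adjusted p = 0.0483 and 0.012).

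Of the other complex IV genes, none was called. Cox4i1, a large regulatory subunit, gave 8.14, 8.41, 8.45 and 8.31 in control CR, against 7.95, 7.90, 8.22 and 8.47 in control AL, a difference of 0.19. In undernourished offspring it gave 8.26, 8.21, 8.22 and 8.63 in CR, against 8.31, 8.17 and 8.33 on 3 AL arrays, since its spot on undernourished AL replicate 3 was marked as an outlier and left out, and the difference was 0.06. Its alternative form Cox4i2, known from lung, was dim but well above background on all arrays, at -4.64, -4.48, -4.70 and -4.63 in control CR, against -4.79, -4.79, -4.35 and -3.93 in control AL. Undernourished pools stood at -4.51, -4.33, -4.66 and -4.51 in CR, against -4.70, -4.77, -3.91 and -4.54 in AL. Its differences were -0.15 and -0.02. Cox6b1, which faces the space between the mitochondrial membranes, gave 2.79, 3.08, 3.22 and 3.01 in control CR, against 2.51, 2.59, 2.84 and 3.23 in control AL. The undernourished pools gave 2.89, 2.97, 2.82 and 3.63 in CR, against 3.04, 3.17, 2.86 and 3.13 in AL. It differed by 0.23 in control and 0.03 in undernourished offspring, and its testis form Cox6b2 by -0.09 and -0.25. Cox6b2 gave -1.59, -1.57, -1.66 and -1.39 in control CR, against -1.56, -1.70, -1.40 and -1.19 in control AL. Pools of undernourished offspring gave -1.67, -1.51, -1.77 and -1.59 in CR, against -1.55, -1.41, -1.29 and -1.28 in AL. Its groups overlapped in both.

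Cox7b, a small subunit, gave 6.99, 6.88, 7.23 and 7.22 in control CR, against 6.54, 6.62, 6.76 and 7.27 in control AL. Undernourished pools gave 6.75, 6.46, 6.99 and 7.08 in CR, against 6.86, 6.73, 6.60 and 6.91 in AL. The groups overlapped in both, with differences of 0.28 and 0.04. Its testis form Cox7b2 gave -6.14, -6.40, -6.59 and -7.13 in control CR, against -5.94, -6.70, -7.76 and -4.72 in control AL. Undernourished pools stood at -6.23, -6.17, -7.19 and -8.63 in CR, against -7.40, -6.58, -7.31 and -6.96 in AL. It was well above background on 2 undernourished CR arrays, 1 control CR array, none of the undernourished AL arrays and 1 control AL array, so that no fold is given.

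Cox7a2l, a relative of subunit VIIa that joins complexes III and IV into supercomplexes, gave 3.42, 3.81, 3.74 and 3.57 in control CR, against 3.93, 3.75, 4.18 and 4.10 in control AL. The groups overlapped by 1 pool, and the difference of -0.36 ± 0.14 did not pass (limma adjusted p = 0.0601). In undernourished offspring it differed by -0.25. Cox6c, a small membrane subunit, gave 7.70, 7.58, 7.89 and 8.08 in undernourished CR, against 8.12, 8.19, 8.08 and 8.41 in undernourished AL. Its groups did not overlap, with a difference of -0.39 ± 0.16 (limma adjusted p = 0.102). The remaining genes Cox5a, Cox5b and Cox7c differed by between -0.15 and 0.15 in both comparisons.

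Among the 17 ATP synthase genes, Atp5mpl, which encodes a small membrane protein bound to the enzyme, was the one called in both diet comparisons, in the same direction. It gave 5.63, 5.58, 5.94 and 5.73 in control CR, against 4.95, 5.14, 5.05 and 5.82 in control AL, and the groups overlapped through control AL replicate 4. It rose by 0.48 ± 0.17 in control offspring (limma adjusted p = 0.0469). That call was lost with the sign kept under 18 of 29 alternative settings, 14 of which leave out a single array (limma adjusted p = 0.0537 to 0.14). When the 5 arrays with high skin or liver markers were left out, the difference was -0.10. The single control AL array left in that fit was replicate 4, the one with the high value of 5.82. With the brain covariate the difference was 0.19 (limma adjusted p = 0.567). In undernourished offspring it gave 5.76, 5.66, 5.79 and 6.11 in CR, against 5.14, 5.27, 5.09 and 5.32 in AL. All restricted pools were above all freely fed pools, and it rose by 0.62 ± 0.17 (limma adjusted p = 0.0211). The call was lost without undernourished AL replicate 3 or undernourished CR replicate 4 (limma adjusted p = 0.0568 and 0.0566).

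The c subunit of the rotor ring is encoded by 3 genes that give the same mature protein. Their responses were not tested against each other. Atp5g3 gave 8.23, 8.08, 8.50 and 8.52 in undernourished CR, against 8.76, 8.84, 8.73 and 9.07 in undernourished AL. The groups did not overlap, and it fell by 0.52 ± 0.15 (limma adjusted p = 0.0265). In control offspring it gave 8.07, 8.25, 8.45 and 8.42 in CR, against 8.38, 8.75, 8.68 and 8.99 in AL, a difference of -0.40 ± 0.15 (limma adjusted p = 0.056). Atp5g2 gave 6.98, 7.20, 6.95 and 7.30 in control CR, against 6.51, 6.53, 6.74 and 7.04 in control AL, a difference of 0.40 ± 0.16 (limma adjusted p = 0.0688). Pools of undernourished offspring gave 6.98, 6.90, 6.92 and 7.31 in CR, against 7.01, 6.78, 6.44 and 6.96 in AL, a difference of 0.23. Atp5g1 gave 7.09, 7.48, 7.45 and 7.28 in control CR, against 6.85, 7.03, 7.18 and 7.57 in control AL. Undernourished pools gave 7.33, 7.15, 6.96 and 7.56 in CR, against 7.40, 7.33, 7.12 and 7.62 in AL. Its differences were 0.17 and -0.12.

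The Atp5g3 call depended on the scaling and on single pools. It was lost without undernourished AL replicate 2 or 4, or undernourished CR replicate 1 or 2 (limma adjusted p = 0.0533 to 0.0798). When the arrays were scaled to the fast muscle markers, whose own median difference in undernourished offspring was -0.44 (7 of 15 called lower, where 9.82% of all genes were), the difference was -0.09, and on the authors' deposited values it was 0.09. The sequence upstream of Atp5g3, the gene called lower in undernourished offspring, lies at chr2:73911277-73911576 (minus strand) in GRCm38.p6. Its capitals mark the NRF1 motif 13 bases after the start and the ERR letters (AAGGTCA, here on the reverse strand) 52 bases before it.
Atp5g3: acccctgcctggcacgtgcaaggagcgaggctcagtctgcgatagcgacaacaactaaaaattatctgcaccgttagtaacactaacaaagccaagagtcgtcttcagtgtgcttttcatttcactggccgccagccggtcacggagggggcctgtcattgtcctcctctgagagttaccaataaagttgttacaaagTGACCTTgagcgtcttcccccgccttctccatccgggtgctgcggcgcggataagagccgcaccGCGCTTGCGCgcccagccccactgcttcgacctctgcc

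Atp5b, the catalytic beta subunit of ATP synthase, was measured by 3 probes, all annotated to the same transcript, and they disagreed in sign. The brightest probe, which stands for the gene in the counts above, gave 8.46, 8.52, 8.64 and 8.45 in control CR, against 8.58, 8.88, 8.73 and 8.91 in control AL, a difference of -0.26 ± 0.15 (limma adjusted p = 0.205). The second probe stood at 7.81 ± 0.20 in control CR and 7.24 ± 0.18 in control AL (mean ± SD, n = 4 arrays each) and rose by 0.58 ± 0.14 (limma over all probes, adjusted p = 0.00447). The dimmest probe stood at 5.45 ± 0.27 in control CR and 4.73 ± 0.23 in control AL and rose by 0.72 ± 0.15 (limma over all probes, adjusted p = 0.00216). In undernourished offspring the same 3 probes differed by -0.38, 0.35 and 0.53, of which the dimmest passed (limma over all probes, adjusted p = 0.022). On the second and the dimmest probe every restricted pool was above every freely fed pool in both comparisons. The sign for Atp5b therefore depends on the probe, which was noticed after the values were seen. For the other 7 genes with several probes the differences of their probes lay within 0.37 of each other in control and 0.46 in undernourished offspring, and Atp5a1, the alpha subunit, and Uqcrh also had probes of both signs.

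**Figure D4:**
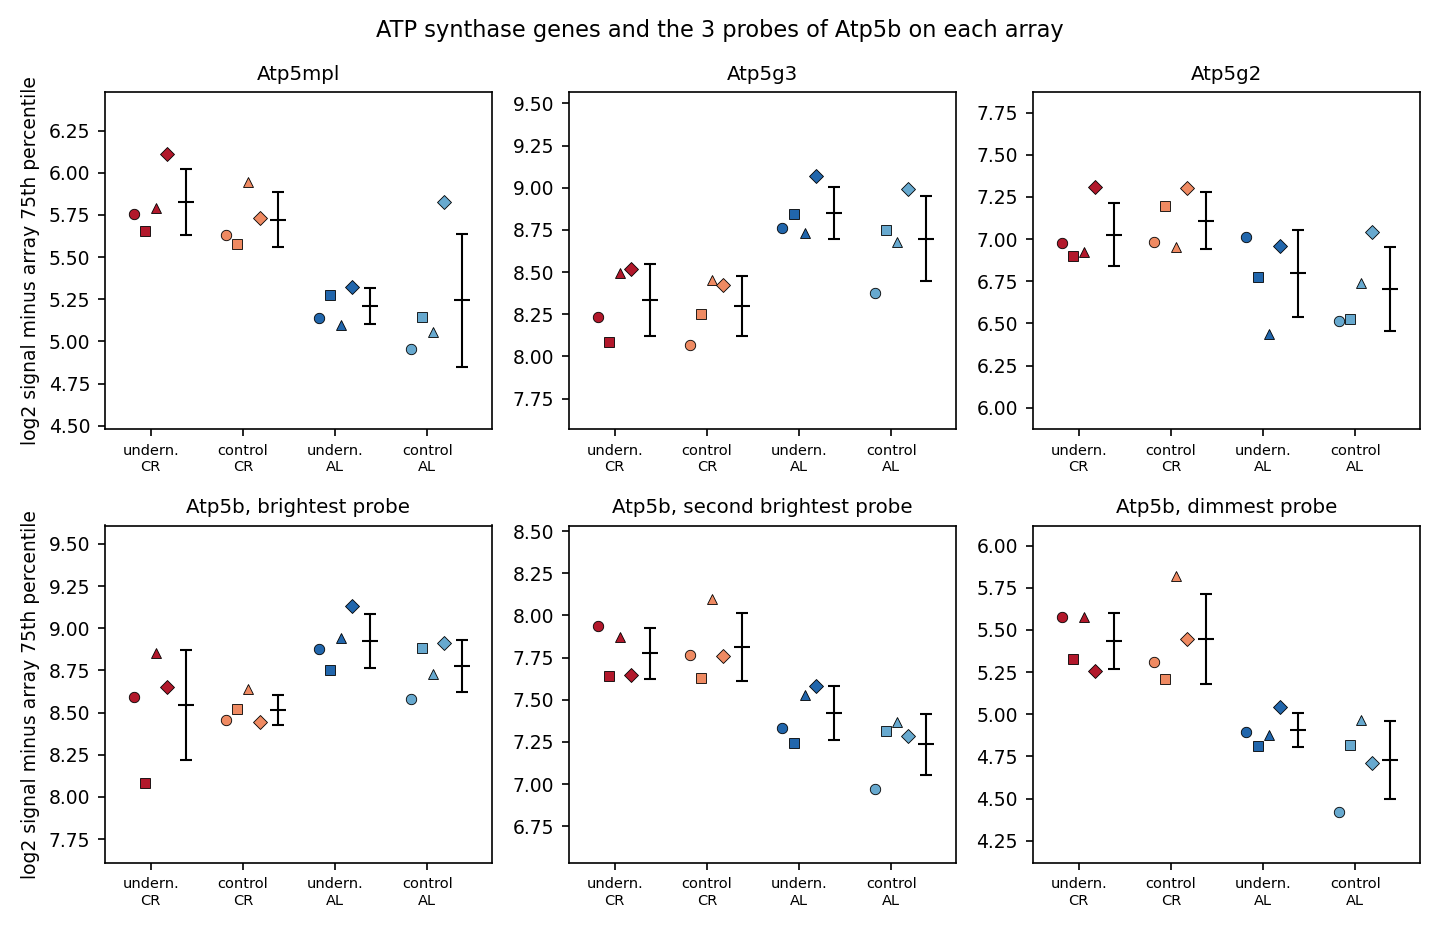
Log2 signal minus the array's 75th percentile of Atp5mpl, Atp5g3 and Atp5g2 (top) and of the 3 probes of Atp5b (bottom) in the 4 groups. Circles, squares, triangles and diamonds are replicates 1 to 4, bars are mean ± SD over 4 arrays, and every panel spans 2 log2 units. The brightest Atp5b probe has a lower mean on CR than on AL arrays, with overlapping groups. The other 2 have higher means, and their CR and AL groups do not overlap in either comparison.

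The remaining ATP synthase genes were not called. In control offspring the differences of all 17 ran from -0.40 to 0.48 with a median of 0.14, and in undernourished offspring from -0.52 to 0.62 with a median of -0.08. Atp5j2, a small subunit of the membrane part, gave 7.56, 7.49, 7.51 and 7.96 in undernourished CR, against 7.41, 7.35, 7.14 and 7.45 in undernourished AL. The groups did not overlap, and the difference of 0.29 did not pass (limma adjusted p = 0.233). The stalk and catalytic head genes Atp5o, Atp5d and Atp5a1 differed by 0.14, 0.12 and -0.05 in control and by -0.05, 0.16 and -0.14 in undernourished offspring. For Atp5a1 these are values of its brightest probe. Its second probe differed by 0.32 in each comparison and did not pass (limma over all probes, adjusted p = 0.0767 and 0.0956).

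The differences were also read by brightness, in levels set after the values were seen. Of the 12 genes with a mean level above 8, 3 had a positive difference in control offspring, and their median was -0.06, beside -0.08 for all 84 genes tested at that level. In undernourished offspring 1 of the 12 was positive, with a median of -0.17, beside -0.21 for the 84. Of the 9 genes with a level of 6 to 7, 8 had a positive difference in control offspring, with a median of 0.20, beside 0.24 for all 226 genes at that level. In undernourished offspring 5 of the 9 were positive, with a median of 0.04, beside 0.09. Of the 14 genes with a level of 7 to 8, 8 had a positive difference in each comparison. Their medians were 0.15 in control and 0.07 in undernourished offspring, beside 0.16 and 0.03 for all 124 genes at that level. In undernourished offspring the median was thus higher at 7 to 8 than at 6 to 7. Below a level of 6 the medians rest on few members. In control offspring the median was 0.07 for the 4 genes with a level of 4 to 6, beside 0.25 for all genes there. It was -0.15 for the 5 below 4, of which 1 was positive, beside 0.05. In undernourished offspring the medians at these levels were 0.04 and -0.02, beside 0.08 and -0.01 for all genes. Among the 3 probes of Atp5b the lowest difference was on the brightest probe in both comparisons. The brightest signal on any array was 18.9 to 19.2 on the log2 scale before scaling, and the brightest Atp5b probe stood at 17.6 to 18.0. Whether brightness set these differences was not tested.

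How many of these genes differ depends on how the arrays are processed. On the authors' deposited log2 values, 34 of the 44 genes were higher and 1 lower in control CR than in control AL, where 45.9% of all genes tested were higher and 56.4% were called in either direction. In undernourished offspring 34 of the 44 were higher and none lower, where 41.6% of all genes were higher and 47.7% were called in either direction. The median difference of the 44 was then 0.49 in control and 0.52 in undernourished offspring, beside all-gene medians of 0.29 and 0.24. When the arrays were scaled to the fast muscle markers, 10 genes were higher and 2 lower in control offspring, where 29% and 9.2% of all genes were, and 19 were higher and none lower in undernourished offspring, where 37.4% and 3.47% of all genes were. On that scale the median difference was 0.26 in control and 0.36 in undernourished offspring, beside all-gene medians of 0.30 and 0.42. Cox6a1 differed by -0.59 in control offspring on the authors' deposited values and by -0.74 when scaled to fast muscle (limma adjusted p = 0.0337 and 0.0207). Cox8a differed by -0.47 in control offspring on the authors' deposited values and was not called there. The median of the 44 genes minus that of all genes was -0.04 in control and -0.06 in undernourished offspring under both scalings. On the authors' values, whose normalization is not given, it was 0.20 and 0.28, so those values differ by more than a scaling of whole arrays. The sign of the set's median difference in undernourished offspring changed with the scaling. Cox6a1 was lower in control CR under both scalings and on the authors' values.

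**Figure D5:**
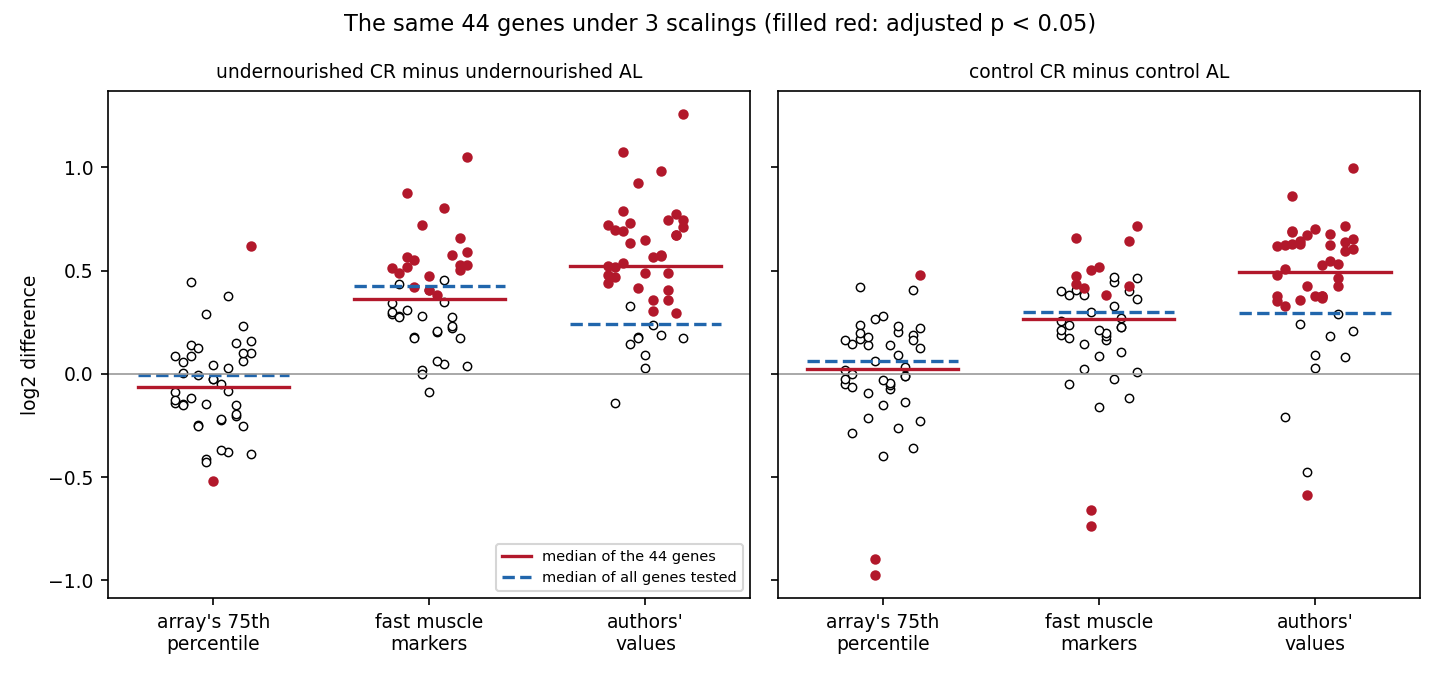
Log2 differences (CR minus AL) of the same 44 genes under both scalings and on the authors' deposited values, in undernourished and in control offspring, 1 point per gene. Solid red lines are the median of the 44 genes and dashed blue lines the median of all genes tested. On the authors' values 34 genes are called higher in each comparison, against 1 with the arrays' 75th percentile.

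Other processing called other numbers of the 44 genes. Quantile normalization called 5 in control and 5 in undernourished offspring, where 35.5% and 21.9% of all genes were called. Normexp background correction called 8 and 8, where 48.8% and 52.9% were. Calls with the replicate number as a block were 5 and 3, where 31.9% and 20.3% of all genes were called. The brain covariate left 2 and 4, where 14.7% and 25.3% were called. Leaving out the 5 arrays with high skin or liver markers left 1 in undernourished offspring, where 14.3% were. For control offspring that fit kept a single control AL array, so no count is given. With probes well above background on every array, 5 genes were called in control offspring, where 36.1% of the genes so tested were.

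The whole set differed between pools. The median deviation of the 44 genes from their means over 16 arrays was -0.02, -0.12, -0.05 and 0.21 on the undernourished CR arrays, -0.16, 0.03, 0.10 and 0.02 on the control CR arrays and 0.09, 0.07, -0.07 and 0.17 for undernourished AL replicates 1 to 4. It was -0.31, -0.19, -0.06 and 0.35 on control AL replicates 1 to 4, the widest spread of the 4 groups, with an SD of 0.29. Without control AL replicate 4, 7 genes were higher and 2 lower in control CR, where 20.9% and 15.3% of all genes were.

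Maternal diet was compared within each offspring diet, to ask whether undernutrition of the dam left a difference in these genes. No gene was called in undernourished AL against control AL, where limma called 0.0322% of all genes tested, and 1 of the 44 had an unadjusted p under 0.05. That gene was Cox6a1, which on slide 1 gave 6.40 and 6.52 in undernourished AL, against 7.09 and 6.94 in control AL, and on slide 2 gave 5.95 and 6.15 in undernourished AL, against 6.41 and 6.44 in control AL. Within each slide the undernourished pools were lower. The difference was -0.46 ± 0.18 (limma adjusted p = 0.186), and with the slide as a block it passed (limma adjusted p = 0.0379), where 7.96% of all genes passed. Without both control AL arrays of slide 1, which had the most brain transcripts, it was -0.17 (limma adjusted p = 0.985). In that fit control AL stood on slide 2 alone and undernourished AL on both slides. Maternal diet and slide were therefore mixed, and the fit cannot say whether the difference within a slide remained. The median difference of the 44 genes was 0.11, beside 0.07 over all genes, with 34 of 44 above 0. Without both control AL arrays of slide 1 it was -0.09, with the same mix of diet and slide. Beyond Cox7b2, which was near background, the other low values were -0.35 for Cox8a and -0.28 for Cyc1, and the highest were 0.30 for Atp5l and 0.26 for Cox6b1. None of these passed. Since arrays of the same number in both AL groups deviated together, the 8 AL arrays were also fitted alone as 4 pairs, where limma called 0% of 24808 genes (4526 at an unadjusted p under 0.05) and 0 of 43 members. Cox6a1 and Cox8a then had an unadjusted p under 0.05 (limma adjusted p = 0.169 and 0.268).

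In restricted offspring the maternal groups lay close together. No gene was called in undernourished CR against control CR, where limma called 0% of all genes tested, and none of the 44 had an unadjusted p under 0.05. The median difference was 0.01, and the 95% interval lay within 0.5 log2 units of 0 for 38 of the 44 genes. Cox6a1 differed by 0.10 (95% interval -0.29 to 0.48), Cox8a by 0.12 (95% interval -0.30 to 0.54), Atp5mpl by 0.11 (95% interval -0.26 to 0.48) and Atp5g3 by 0.04 (95% interval -0.29 to 0.36). Beyond Cox7b2, which was near background, the lowest differences were -0.26 for Cox7b and -0.16 for Uqcr11, and the highest was 0.16 for Atp5c1. For the mean effect of maternal diet over both offspring diets 0 of 44 genes were called, where limma called 0% of all genes, and 0 of 44 had an unadjusted p under 0.05. For the interaction of both diets 0 of 44 were called, where limma called 0.00403% of all genes, with 1 at an unadjusted p under 0.05, Cox6a1. The lowest interaction values were -0.32 for Uqcr11, -0.29 for Atp5l and -0.28 for Atp5g1.

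Genes that build or serve these complexes were read from the same fit, as lists written with earlier results known. Of 23 measured genes for complex IV assembly and its copper and haem delivery, 4 were higher and none lower in each diet comparison, with medians of 0.23 and 0.25. That is 17.4% of the list in each, where 16.8% of all genes were higher in control CR and 10.3% in undernourished CR, so the control count was near the share over all genes. They were the same 4 genes, Coa5, Cox16, Tmem177 and Cox10. Coa5, an assembly factor, stood at 4.09 ± 0.14 in control CR and 3.50 ± 0.24 in control AL, and at 4.14 ± 0.05 in undernourished CR and 3.43 ± 0.06 in undernourished AL (mean ± SD, n = 4 arrays each). It rose by 0.59 ± 0.12 and 0.71 ± 0.12 (limma adjusted p = 0.00229 and 0.00149). Cox16 rose by 0.85 and 0.67, Tmem177 by 0.47 and 0.50 and Cox10, which makes the haem of complex IV, by 0.43 and 0.55.

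For the shorter lists the shares over all genes are the same 16.8% and 10.3%. Of 5 ATP synthase assembly genes 2 were higher in control CR, Atpaf2 by 0.78 and Atpaf1 by 0.60, and Atpaf2 was also higher in undernourished CR, by 0.46. Of 6 measured complex III assembly genes 2 were higher in control CR, Uqcc1 by 0.50 and Bcs1l, which inserts the Rieske protein, by 0.43, and none was called in undernourished CR. Of 8 complex II genes the catalytic subunit Sdha was the one called, higher by 0.89 in control CR and by 0.51 in undernourished CR. Of 11 measured genes of coenzyme Q synthesis 4 were higher in control CR, with the largest changes in Coq10b by 0.80, Coq5 by 0.63 and Coq2 by 0.48, and none was called in undernourished CR. Of 17 nuclear regulators, 2 were higher in control CR, the coactivator Ppargc1b by 1.03 and the receptor Esrra by 0.47, and Ppargc1b was higher in undernourished CR by 1.06. These are 11.8% and 5.88% of the list, below the shares over all genes, as was the complex II count in control CR (12.5%).

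Among 12 measured genes for ATP export and the phosphocreatine shuttle, the creatine kinases of other tissues fell in both comparisons. Ckmt1 fell by 4.91 in control CR and by 3.53 in undernourished CR, and Ckb, the brain form, fell by 1.38 and 0.81. Beside these, 35 of 39 brain markers were lower in control CR and 27 in undernourished CR, with median differences of -4.21 and -2.55, where 15.1% and 9.82% of all genes were lower, and the part of brain transcripts in any of these results was not tested. Slc25a4, the muscle ATP carrier, fell by 0.50 in undernourished CR, and Ak1, an adenylate kinase, rose by 0.57 in control CR. No probe on the arrays was matched to the mitochondrially encoded subunits of these complexes, so those genes were not analysed here.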

How the data were processed

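RNA of 16 pools of mouse tibialis anterior was hybridised to 1-colour Agilent arrays. Per the file headers, the authors' Feature Extraction 10.5.1.1 files hold the processed signal, an intensity from which the scanner software subtracted background within each array. Further deposited columns give flags, coded 0 or 1, for detection over background and for outlier spots. The deposited processed signal has 3 significant digits on the CR arrays and 7 on the AL arrays. A second deposited table holds the authors' log2 values, centred so that each probe's median over the arrays is 0, with a median slope of 0.816 and correlation of 0.957 between its array differences and those of the scanner signals. The sources used here do not give its normalization. Its column medians in replicate order were 0.0265, 0.0330, 0.0342 and 0.0171 in undernourished CR, 0.0267, 0.0301, 0.0305 and 0.0374 in control CR, -0.0438, -0.0239, -0.0086 and -0.0087 in undernourished AL and -0.0881, -0.101, -0.0265 and -0.0041 in control AL.

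Control spots and outlier spots were left out, spots of a probe were averaged, and log2 signals were scaled to each array's 75th percentile. Of 41174 probes, 24844 matched a RefSeq symbol (GRCm38.p6), and 32079 were kept as well above background on at least 4 arrays. The brightest probe stood for each gene, and 24826 genes were tested with the moderated linear model of limma 3.58.1 (R 4.3.3), with a mean for each group, two-sided p and Benjamini-Hochberg adjustment. The fit was tested on simulated data. Calls use an adjusted p under 0.05. The members, lists and tests were chosen with earlier results of these data known. Every member may be named, and full statistics go to the called members and to those with the largest changes. The isoform pairs and c-subunit genes are given on every array, and up to 3 called genes in each direction per partner list. Alternatives were quantile and normexp processing (on the median signal, with the local background limited at the 99.9th percentile of its array), other scalings, filters, blocks, a brain covariate and leaving out arrays. Same-number arrays of undernourished AL and control AL, which share slides, deviated together (correlation 0.113 to 0.440 in 4 of 4 pairs), so these groups were also fitted as pairs. Other arrays of these groups on a shared slide correlated at -0.0248 to 0.249, so number and slide cannot be told apart. Motifs were counted in RefSeq promoter sequences.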

Additional observations from a re-analysis of the deposited data

Results flagged for a closer look

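Each gene's highest or lowest array in a group of 4 was set against the other 3, for 175 sets of 4 arrays, and 11 stood apart by more than the 95% limit for a single outlying value. Chance alone flags about 1 in 20 groups.

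Of the 11, 6 were high values on undernourished CR replicate 4. They were Atp5j2 at 7.96 (other arrays 7.49 to 7.56), Atp5k at 6.13 (5.62 to 5.69), Atp5l at 6.40 (5.90 to 5.96), Cox4i1 at 8.63 (8.21 to 8.26), Cox7a2 at 7.17 (6.42 to 6.51) and Uqcr10 at 8.18 (7.60 to 7.63). On that array the median deviation of the 44 genes was 0.21, the highest of its group.

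A further 3 were high values on control AL replicate 4, Cox7a2 at 6.79 (other arrays 5.91 to 5.92), Uqcrb at 7.07 (6.31 to 6.43) and Uqcrh at 8.90 (8.14 to 8.25). The median deviation of the 44 genes there was 0.35, the highest of all arrays.

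The other two were low values. Atp5c1 stood at 7.79 on undernourished CR replicate 2 (other arrays 8.87 to 8.99), and Atp5md at 6.48 on control CR replicate 1 (6.73 to 6.78).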

How the results depend on the processing

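Relative to 3 members called in control offspring and 2 in undernourished offspring, counts in the 2 diet comparisons were 8 and 8 with normexp, 5 and 5 with quantile normalization, 12 and 19 scaled to fast muscle markers, and 35 and 34 on the authors' values. They were 5 in control offspring with probes above background on all arrays, 5 with a replicate block and 4 in undernourished offspring with the brain covariate. When 5 arrays with high skin or liver markers were left out, the count was 1 in undernourished offspring. A single control AL array was left there, so no count is given for control offspring. Leaving out 1 array gave 2 to 9 and 1 to 4. In undernourished AL against control AL the count was 1 with slide as a fixed block (Cox6a1), and 0 under the other settings run. Counts in undernourished CR against control CR, the interaction and the mean maternal effect stayed at 0 under all settings run. Same-number pairs correlated over 0.1 in 4 of 4 cases between undernourished AL and control AL, in 2 of 4 between undernourished CR and control CR and in 0 of 16 between other groups, and 6 of 16 arrays correlated best with their own number. A replicate block changed no call in the maternal comparisons, also within the AL arrays alone, a fit chosen after seeing the data. Of named genes, Atp5mpl in control offspring reversed to -0.103 without the 5 arrays, where replicate 4 alone stood for control AL. Atp5g3 in undernourished offspring reversed to 0.0919 on the authors' values. The cause was not tested. The planned limit of -4 for skin and liver transcripts left no AL array and could not be fitted, so the limits for the 5 arrays were chosen after seeing the data, as was leaving out both control AL arrays of slide 1 and the limit on the local background in normexp. Quantile normalization moved the median of all genes from 0.06 to 0.16 in control offspring, and normexp to -0.16. The number of arrays limits the precision.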
